A study of Mus musculus with 4 samples.

Results

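Pax3, Pax7, Six4, Six5, Eya1, Eya2, Eya3, Eya4 and Dach1 encode the paired-box, sine oculis and eyes-absent factors of satellite cells, the resident stem cells of skeletal muscle, together with a dachshund cofactor. Open chromatin at these 9 genes was described from ATAC-seq of mouse primary myoblasts. In ATAC-seq the Tn5 transposase inserts sequencing adapters where DNA is exposed, and a peak is a stretch with more fragments than its surroundings. A peak was assigned to a gene when at least 1 bp of it lay between 50 kb upstream of the gene start and 50 kb past the gene end (mm9, GENCODE M1). By this rule, 38 of the 25775 peaks of the wild-type (WT) list and 8 of the 3836 peaks of the Tet2 KO list belonged to the 9 genes.

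The samples were 2 WT and 2 Tet2 KO libraries of 5000 cells each. Satellite cells were sorted by flow cytometry from the hindlimb muscle of C57BL/6 mice as CD34+ Integrin a7+ cells negative for PI, CD45, CD11b, CD31 and Sca1, and were cultured for 3 days into myoblasts. Adult male mice were used by default in the study. Tet2, an enzyme that oxidises 5-methylcytosine in DNA, was deleted in the whole animal and not in muscle alone, so every cell type of the Tet2 KO mice lacked it. The 2 genotypes were compared in the study to learn whether loss of Tet2 changes chromatin accessibility in myoblasts.

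What was analysed is 1 peak list per genotype. Each list carries a single library name and was tied to its genotype by the name the depositors gave it. With 1 list per genotype there is no replicate, no difference between genotypes was tested, and the intervals below are exact (Clopper-Pearson) 95% binomial intervals that cover counting error only. The peak caller numbers its peaks along the genome. The WT list runs up to number 35482 and skips 9707 numbers, and the Tet2 KO list runs up to 8239 and skips 4403, so neither list holds all peaks that were called. At most 20 skipped WT numbers and 39 skipped Tet2 KO numbers can lie in the windows of the 9 genes, and at least 9 and 1 must. A gene described below as without a peak is therefore a gene without a listed peak. Background coverage, as its most frequent value, was 0.649 fragments per position for WT and 1.38 for Tet2 KO, and the part of this difference in the values below was not tested. Tet2 itself had 4 WT peaks within 50 kb, 1 of them at its promoter, and no Tet2 KO peak, which does not test the deletion, since the lists show accessibility and not the presence of an exon. Peaks at the promoter marked 3 of 6 myoblast genes in both lists (Myod1, Des and Chrna1), 0 of 4 immune and 0 of 4 fibro-adipogenic genes in either list, and 1 of 4 endothelial genes (Pecam1) in the WT list alone. Within 50 kb, where peaks of neighbouring genes count too, WT peaks were listed at 5 of 6 myoblast, 4 of 4 immune, 4 of 4 endothelial and 2 of 4 fibro-adipogenic genes, and Tet2 KO peaks at 5, 2, 3 and 0 of them, so presence in the window did not set the myoblast genes apart. Myf5, a defining gene of myoblasts, had no listed peak within 50 kb.

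Pax7 is the transcription factor that marks satellite cells, and its close relative Pax3 acts in muscle precursors of the embryo and in satellite cells of some adult muscles. Sine oculis proteins such as Six4 and Six5 are homeodomain factors that bind the MEF3 site, written here as TCAGGTTTC, in muscle genes. They bring in Eya proteins, coactivators that also carry a phosphatase domain, whereas Dach proteins join the same complexes as corepressors. The 4 families form a network that acts upstream of the myogenic regulatory factors in muscle precursors.

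The following peaks carry the description below: the overlapping peaks of Pax7 and Six4 away from promoters of other genes, the peaks with the MEF3 letters, and the WT peak with the highest -log10 q of Pax3 and of Eya2. The Eya3 promoter is shown up to the annotated transcript start, which leaves the summit out. Sequences are the mm9 plus strand read 5′ to 3′, at most 300 bases around the summit. Capitals mark CAGCTG (an E box of the type that the myogenic factors bind), TGANTCA (AP-1), TCAGGTTTC (MEF3), TGTGGTT (RUNX) and GGAATG (TEAD), each searched on both strands, so that a match on the minus strand appears as its reverse complement. The Pax7 intron peak was added after its values were seen, because it holds the MEF3 letters.
Pax3 upstream peak, chr1:78212366-78212498: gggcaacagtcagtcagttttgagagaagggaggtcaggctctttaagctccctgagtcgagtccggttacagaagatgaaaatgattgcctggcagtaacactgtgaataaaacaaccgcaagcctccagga
Pax7 downstream peak, chr4:139245687-139245986: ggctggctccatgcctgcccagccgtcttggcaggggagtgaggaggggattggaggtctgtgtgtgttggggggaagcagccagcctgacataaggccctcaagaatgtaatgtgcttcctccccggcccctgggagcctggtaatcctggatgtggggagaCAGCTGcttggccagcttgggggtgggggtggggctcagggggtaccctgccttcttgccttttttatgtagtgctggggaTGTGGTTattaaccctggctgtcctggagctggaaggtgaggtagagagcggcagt
Pax7 intron peak, chr4:139353345-139353514: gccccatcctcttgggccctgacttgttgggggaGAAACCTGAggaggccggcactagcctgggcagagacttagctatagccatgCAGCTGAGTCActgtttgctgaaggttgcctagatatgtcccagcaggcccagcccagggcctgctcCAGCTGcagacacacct
Six4 promoter peak, chr12:74214284-74214556: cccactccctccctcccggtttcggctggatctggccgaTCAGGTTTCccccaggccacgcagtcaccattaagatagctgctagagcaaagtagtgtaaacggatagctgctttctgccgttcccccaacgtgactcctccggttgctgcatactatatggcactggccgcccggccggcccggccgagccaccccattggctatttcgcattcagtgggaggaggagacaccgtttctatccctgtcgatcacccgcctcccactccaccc
Six4 upstream peak, chr12:74248239-74248493: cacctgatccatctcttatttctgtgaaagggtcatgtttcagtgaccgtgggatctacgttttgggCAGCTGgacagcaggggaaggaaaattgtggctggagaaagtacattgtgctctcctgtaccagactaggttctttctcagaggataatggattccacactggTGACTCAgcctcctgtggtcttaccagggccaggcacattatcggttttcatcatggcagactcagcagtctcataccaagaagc
Eya2 intron peak, chr2:165576594-165576751: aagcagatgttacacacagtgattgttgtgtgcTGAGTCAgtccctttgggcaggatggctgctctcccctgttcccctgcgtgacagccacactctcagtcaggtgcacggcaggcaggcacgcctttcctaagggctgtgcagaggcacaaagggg
Eya3 promoter peak, chr4:132194818-132194901: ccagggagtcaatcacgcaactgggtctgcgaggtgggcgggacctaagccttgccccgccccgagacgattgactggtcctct
Of these stretches, the Pax7 intron and the Six4 promoter hold the MEF3 letters, on the minus strand at position 35 and on the plus strand at position 40 of the printed sequence. In the Pax7 intron the first E box, at position 87, overlaps the AP-1 letters that start at position 91, and a further E box lies at position 154. The Pax3 upstream and Eya3 promoter stretches hold no match to the 5 motifs.

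The peaks lay mostly away from the genes' own starts, as does most of the length of the windows, which sum to 2081.4 kb. The positions below were not compared with shares expected from window length. Of the 38 WT peaks, 14 lay inside a member gene, 10 upstream and 14 downstream, and 33 had their summit more than 10 kb from the gene start. By the annotation at the peak centre, 9 (23.7%) were at a promoter, 16 (42.1%) in an intron and 13 (34.2%) intergenic, and none was in an exon or untranslated region. Over the whole WT list these shares were 27.3% promoter, 36.3% intron and 33.0% intergenic. A promoter is here the stretch from 1000 bp upstream to 100 bp downstream of an annotated start. Of the 9 promoter peaks, 6 were at promoters of other genes inside the windows.

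A listed WT peak was found at 7 of the 9 genes, against 74.3% of the 22350 protein-coding genes of the autosomes and X. A Tet2 KO peak was found at 5 of the 9, against 31.4% of those genes. At Six5 and Eya3 these peaks lay only at promoters of other genes, which the rule counts for every gene. The shares are not matched for gene length. The median protein-coding gene spans 15.4 kb, and of the 9 genes only Six4 and Six5 are shorter. The gene's own promoter had a WT peak at Six4, Six5 and Eya3, which is 3 of 9 against 30.3% of protein-coding genes, and a Tet2 KO peak at Six4 alone, which is 1 of 9 against 7.92%. The windows sum to 2081.4 kb and held 1.83 WT peaks and 0.384 Tet2 KO peaks per 100 kb. The genes themselves differed widely: Pax7 had 8 WT peaks, Eya4 7, Eya3 6, Six4 and Six5 5 each, Pax3 4 and Eya2 3, whereas Eya1 and Dach1 had none.

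**Figure D1:**
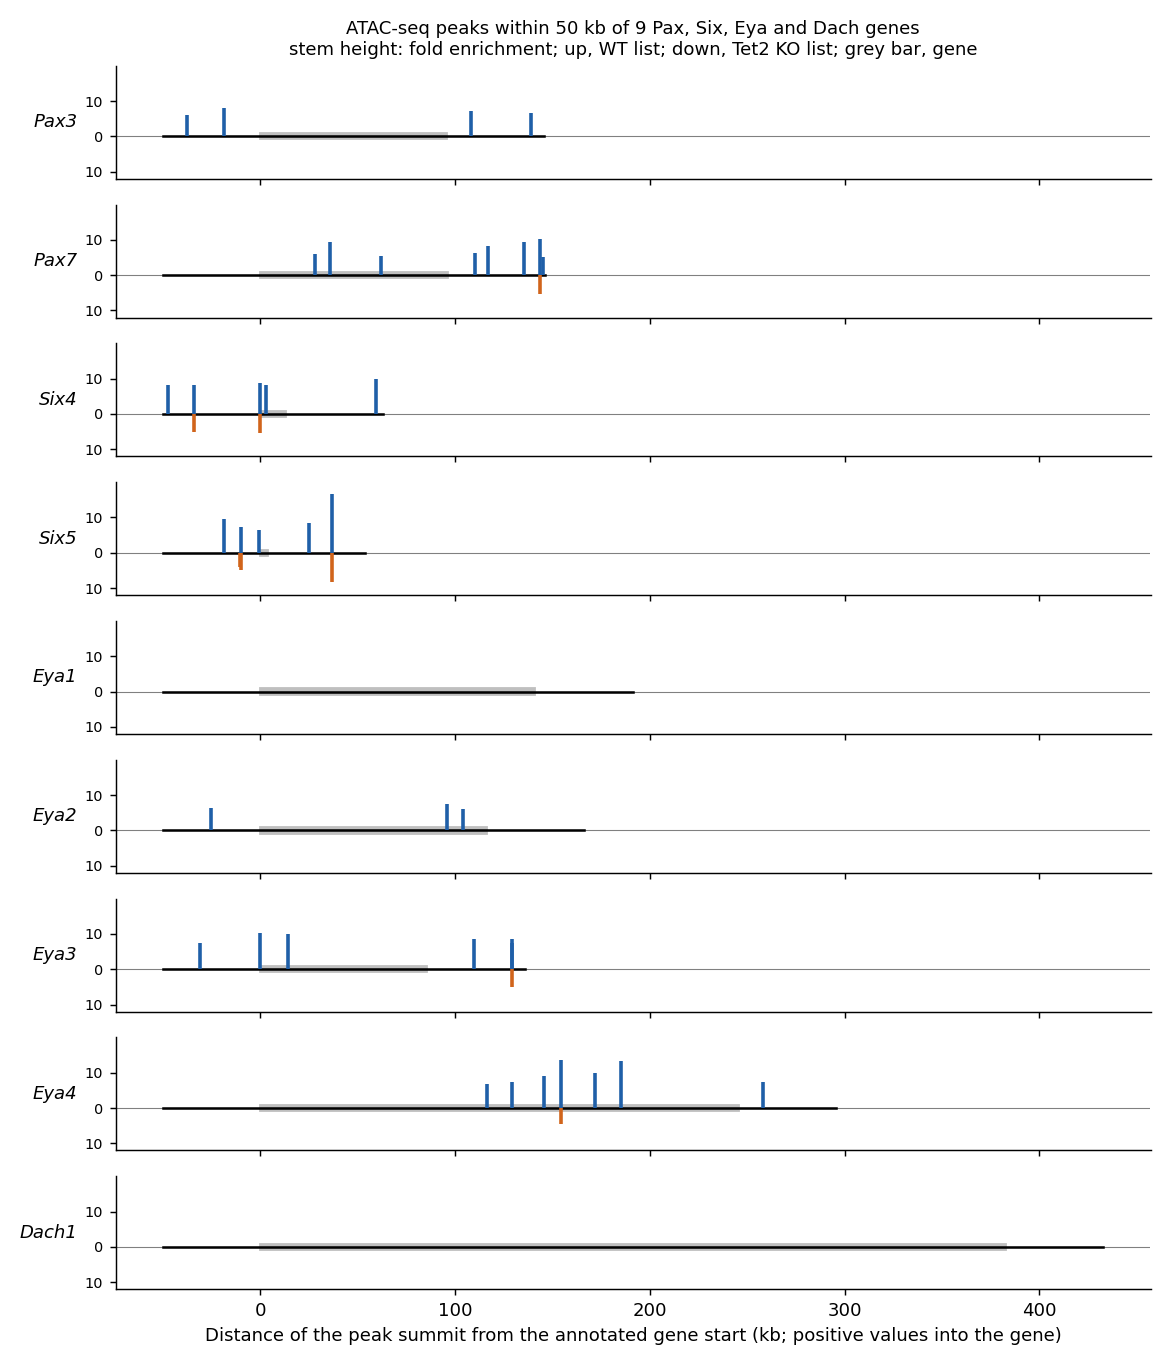
Listed ATAC-seq peaks within 50 kb of each of the 9 genes, as the distance of the summit from the gene start in kb (x axis), with stems up for WT and down for Tet2 KO whose height is the fold enrichment of the summit over local background. Grey bars are the genes and black lines the windows. Stems stand at 7 genes, Eya1 and Dach1 have none, and the downward stems are 8 against 38 upward ones.

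Per length, Six5 (4.82 WT peaks per 100 kb of window), Six4 (4.42) and Pax7 (4.07) were the most densely covered, and each was above 85.2% or more of protein-coding genes on this measure. Eya3 followed with 3.23 per 100 kb, then Pax3 with 2.04, Eya4 with 2.02 and Eya2 with 1.39. The median protein-coding gene had 1.60, and the median of those of at least 100 kb, such as Eya2 and Eya4, had 0.978. Windows near gene-rich stretches also count peaks of neighbouring genes, which applies most to Six5, where 4 of 5 WT peaks lay at promoters of Dmwd, Dmpk and Fbxo46.

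At Pax7 (chromosome 4, 139292977 to 139389445, minus strand) 8 WT peaks were listed, more than at 94.5% of protein-coding genes, and none was at the Pax7 promoter or upstream of it. Of the 8, 5 lay past the gene end and 3 in introns. Past the end, the summits lay at 14.0, 20.4, 39.1, 47.1 and 48.8 kb. Their folds of the summit over local background were 6.22, 8.30, 9.45, 10.3 and 5.11 in that order, so the strongest lay near the far edge of the window. This strongest peak, the printed downstream one, had 35 fragments over a background of 2.51 in the WT library and 20 over 2.92 in the Tet2 KO library. The fold was 10.3 in WT and 5.36 in Tet2 KO, a ratio of 1.91, with the summits 113 bp apart. It was the only WT peak of Pax7 with an overlapping Tet2 KO peak.

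Of the Pax7 intron peaks, 1 lay in intron 7 of 8 with a fold of 5.51, and 2 lay in intron 4 with folds of 9.46 and 5.85. The stronger intron 4 peak is the printed one, with 20 fragments over 1.22 in WT and a -log10 q of 14.7, and the Tet2 KO list has no peak at this place. It was the only peak of the 38 to hold the MEF3, E box and AP-1 letters together, but only 2 of the 38 hold the MEF3 letters at all. The share of the whole WT list with all of these letters was not computed. The 2 CAGCTG sites of this peak lay 35 and 11 bases from the nearest CpG, the dinucleotide at which Tet2 acts. Between 3 and 5 skipped WT numbers and up to 8 skipped Tet2 KO numbers can fall in the Pax7 window.

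Pax3 (chromosome 1, 78097842 to 78193709, minus strand) had 4 WT peaks, all intergenic, and no Tet2 KO peak. The summits lay 37.4 and 18.7 kb upstream of the gene start and 12.5 and 43.2 kb past the end, with folds of 5.92, 8.12, 7.14 and 6.51. The folds of 3 of the 4 were thus under the WT median of 7.89. The printed peak 18.7 kb upstream was the strongest, with 15 fragments over 0.97 and a -log10 q of 10.6. Both downstream peaks hold TGANTCA and the far upstream one TGTGGTT, and none of the 4 holds CAGCTG. Up to 1 skipped WT number and up to 2 skipped Tet2 KO numbers can fall there.

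Among the sine oculis genes, Six4 (chromosome 12, 74201246 to 74214401, minus strand) had 5 WT and 2 Tet2 KO peaks and was the only one of the 9 genes with its own promoter listed in both genotypes. The promoter summit lay 38 bp upstream of the gene start in WT. It had 22 fragments over 1.65 in WT and 14 over 1.84 in Tet2 KO, folds of 8.68 and 5.27, and summits 4 bp apart. The peak is rich in CpG, with 17 in 273 bp, and holds the MEF3 letters, which 22 of 7046 WT promoter peaks (0.312%) do. The -log10 q of the Tet2 KO promoter peak was 4.83, so it is lost under a limit of 5.

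The other shared Six4 peak, printed above as the upstream peak, lies 34.0 kb upstream of Six4 in an intron of the neighbouring gene Mnat1, which encodes an assembly factor of the CDK-activating kinase. It had 14 fragments over 0.85 in WT and 11 over 1.38 in Tet2 KO, with folds of 8.11 and 5.03. A further Mnat1 intron peak 47.1 kb upstream had a fold of 8.14, a Six4 intron 1 peak 2790 bp into the gene 8.06, and a GC-rich intergenic peak 46.3 kb past the end 9.85, and none of these 3 had a Tet2 KO peak. The 5 folds thus spanned only 8.06 to 9.85, the narrowest range of the genes with at least 4 peaks. No skipped WT number can fall in the Six4 window, so the 5 peaks are all that were called there in the WT library. Up to 1 skipped Tet2 KO number can fall in it.

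Six5 (chromosome 7, 19679893 to 19683694, plus strand) lies next to Dmpk, the myotonic dystrophy kinase gene, in a dense stretch of genes. Its 5 WT peaks were all at promoters, but only that 614 bp upstream of Six5 was its own. This own promoter peak had 23 fragments over 2.66, a fold of 6.56, and no Tet2 KO peak. It was the weakest of the 5 by fold. A skipped Tet2 KO number falls between the Tet2 KO peaks at the Dmpk and the farther Fbxo46 promoter, a stretch that includes the Six5 promoter, so a Tet2 KO peak could have been called there and not listed. Between 3 and 4 skipped WT numbers can fall in the Six5 window. At the Dmwd promoter and at a more proximal Fbxo46 promoter peak the folds were 9.52 and 8.54, also without a Tet2 KO peak.

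The Dmpk promoter peak (chr7:19669523-19670138) had 37 fragments over 4.15 in WT and overlapped 2 Tet2 KO peaks, with 17 fragments over 3.36 and 20 over 3.35. The folds were 7.38 in WT and 4.13 and 4.83 in Tet2 KO. The second Fbxo46 promoter peak (chr7:19716619-19717093) was the strongest of all 38, with 47 fragments over 1.89 and a fold of 16.6, higher than 99.6% of the WT list. Its Tet2 KO counterpart had 25 fragments over 2.11 and a fold of 8.36, higher than 94.3% of the Tet2 KO list. Thus the strongest peaks within 50 kb of Six5 in either genotype lay at promoters of neighbouring genes. Fbxo46 encodes an F-box protein.

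The 4 Eya genes were unlike each other. Eya3 had a promoter peak, Eya4 had peaks in introns, Eya2 had 3 weak peaks, and Eya1 had no listed peak. At Eya3 (chromosome 4, 132194902 to 132280680, plus strand) the promoter summit lay 7 bp into the gene, with 19 fragments over 0.94 and a fold of 10.3. It holds 18 CpG, against 17 in the Six4 promoter peak. It had no Tet2 KO counterpart in the list, which is the usual case, since 22.5% of all WT promoter peaks overlap a Tet2 KO peak. An intron 1 peak had a fold of 10 and a peak 30.6 kb upstream 7.30, both without a Tet2 KO peak. Past the end, a peak in an intron of Smpdl3b had a fold of 8.57, and 2 peaks at the promoter of Rpa2, a subunit of the single-strand DNA-binding replication protein, had 7.53 and 8.56. The latter was the only Eya3 peak with a Tet2 KO counterpart, with 15 fragments over 0.87 in WT and 11 over 1.45 in Tet2 KO. No skipped WT number can fall in this window, whereas up to 9 Tet2 KO numbers can.

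Eya4 (chromosome 10, 22823974 to 23069701, minus strand) had 7 WT peaks, of which 6 lay inside the gene, in introns 2, 3 and 4 of 18, and 1 lay 12.3 kb past its end. Of the 2399 protein-coding genes of at least 100 kb, 307 (12.8%) had 6 or more WT peaks inside, and the median of these genes was 1. The folds along the genome were 7.32, 13.3, 9.85, 13.7, 9.18, 7.28 and 6.67, so the 2 strongest lay in introns 4 and 3. The stronger of these, in intron 3, had 30 fragments over 1.27 in WT and 10 over 1.38 in Tet2 KO. Its fold was 13.7 in WT and 4.61 in Tet2 KO, a ratio of 2.96. This ratio was the largest of the 8 overlapping pairs of the 9 genes and above the 95th percentile of all pairs (2.79). Being the largest of 8, it was more likely to pass that percentile than a pair named in advance. The Tet2 KO peak of this pair was the weakest of the 8 by -log10 q, at 2.92, so the ratio rests on a weak peak. The intron 4 peak (chr10:22884044-22884399), with 22 fragments over 0.73 and a fold of 13.3, was the strongest of the 31 WT peaks without a listed Tet2 KO peak. Between 2 and 6 skipped WT numbers and up to 10 skipped Tet2 KO numbers can fall in the Eya4 window.

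Eya2 (chromosome 2, 165480798 to 165597227, plus strand) had 3 WT peaks with folds of 6.32, 7.49 and 6.06, all under the WT median of 7.89, and no Tet2 KO peak. They lay 25.2 kb upstream of the gene and in introns 9 and 10 of 15. The printed intron 9 peak, with 13 fragments over 0.87, holds TGANTCA, and the other 2 hold CAGCTG. Between 1 and 2 skipped WT numbers and up to 4 skipped Tet2 KO numbers can fall there. By count, Eya2 was above 55.9% of protein-coding genes, and by peaks per 100 kb above 46.6%, ranks that are not matched for gene length. Its 1.39 WT peaks per 100 kb stood beside a median of 0.978 over genes of at least 100 kb, to which it belongs.

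At Eya1 (chromosome 1, 14159035 to 14300281, minus strand) neither list held a peak in the window, and the nearest WT peaks lay 157115 and 174343 bp from the gene. At Dach1 (chromosome 14, 98186066 to 98568984, minus strand), the longest of the 9 genes, the nearest WT peaks lay 383168 and 868068 bp away. Of protein-coding genes of at least 100 kb, 431 (18.0%) likewise had no listed WT peak within 50 kb. At most 1 skipped WT number can fall in each of these 2 windows, and at most 3 skipped Tet2 KO numbers at Eya1 and 1 at Dach1.

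**Figure D2:**
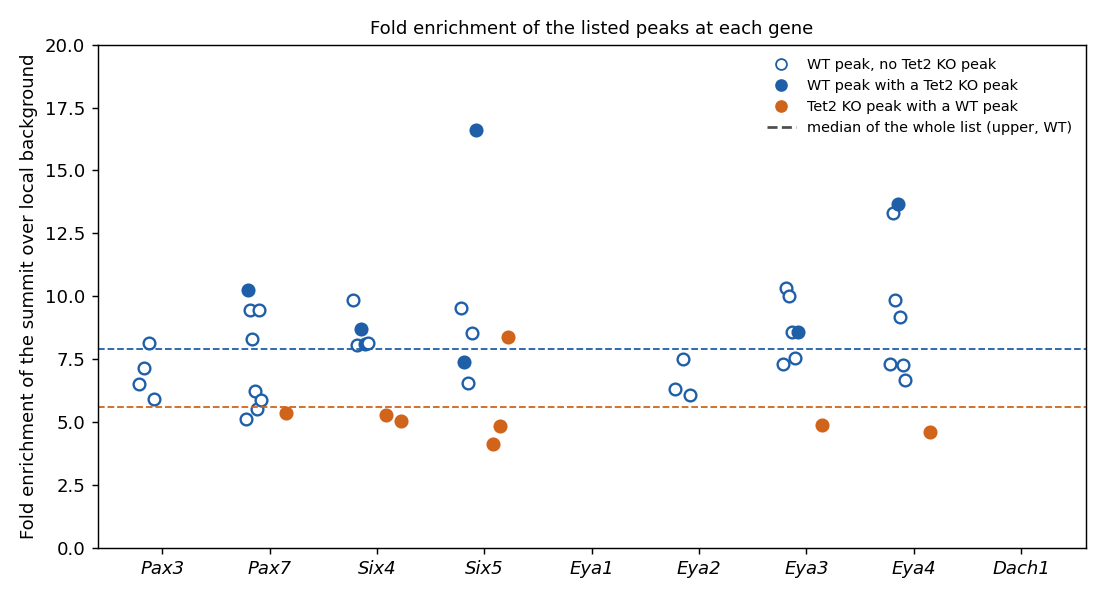
Fold enrichment of each listed peak's summit over the local background of its own library (y axis, linear from 0), by gene (x axis). Open blue points are WT peaks without a Tet2 KO peak, filled blue points WT peaks with one, orange points Tet2 KO peaks, and dashed lines the medians of the whole lists (7.89 WT, 5.59 Tet2 KO). WT folds run from 5.11 to 16.6, and 7 of the 8 Tet2 KO points lie under their list's median.

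Across the genes, the WT peaks were of ordinary strength. Their median fold was 8.11 (range 5.11 to 16.6), against 7.89 in the whole WT list. Their median of 17 fragments at the summit (range 9 to 47) stood beside 16 in the whole list, and their median GC content of 52.1% beside 53.2%. The 8 Tet2 KO peaks had a median fold of 4.96 against 5.59 in the whole Tet2 KO list, and 15.5 fragments against 15. The Fbxo46 promoter peak, with a fold of 8.36, was the only one of the 8 above the median of its list.

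Overlap with the Tet2 KO list was found for 7 of the 38 WT peaks, a share of 18.4% (7.74 to 34.3%), against 14.1% of the whole WT list, which lies inside this interval. Among promoter peaks it was 4 of 9, or 44.4% (13.7 to 78.8%), against 22.5%, and among distal peaks 3 of 29, or 10.3% (2.19 to 27.4%), against 11.0%. Both of these background shares also lie inside the intervals. Without the 6 peaks at promoters of other genes, 4 of 32 WT peaks, or 12.5% (3.51 to 28.99%), had a Tet2 KO peak. In the other direction, all 8 Tet2 KO peaks overlapped a WT peak, against 96.8% of the whole Tet2 KO list. At these counts, none of these overlap shares of the 9 genes could be told from that of the whole list.

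**Figure D3:**
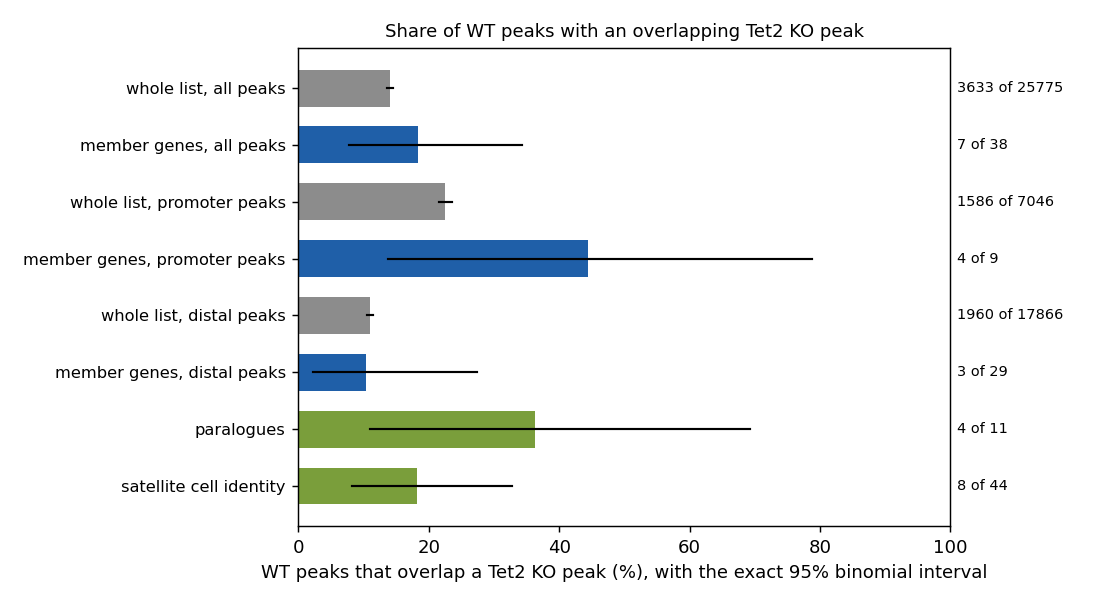
Percent of WT peaks sharing at least 1 bp with a Tet2 KO peak (x axis), for the whole WT list (grey), the 9 genes (blue) and 2 lists of related genes (green). Lines are exact 95% binomial intervals and the counts stand at the right. The interval of each blue bar includes the grey bar above it.

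The 7 WT peaks with a Tet2 KO peak had a median of 30 fragments (range 14 to 47) and a median fold of 8.68, and the 31 without had 16 fragments (range 9 to 23) and 7.53. The 2 ranges of fragments overlapped between 14 and 23. The whole list showed the same order, with medians of 27 and 15 fragments. Median GC content was 59.2% with and 51.2% without a Tet2 KO peak at the 9 genes, and 56.6% and 52.7% in the whole list.

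In each of the 8 overlapping pairs the WT summit had both more fragments and the higher fold. The WT fold exceeded the Tet2 KO fold by a factor of 1.53 to 2.96, with a median of 1.77. These factors hold differences in local background as well as at the summit. The background was higher in Tet2 KO at every pair except those at the Dmpk promoter, where it was higher in WT. The part of background in the factors was not tested. Over all 3722 overlapping pairs the median factor was 1.89, the 5th to 95th percentile ran from 1.23 to 2.79, and 98.1% of pairs had the higher fold in WT. Summits of the 8 pairs lay 4 to 283 bp apart, with a median of 39.5 bp against 38 bp over all pairs. The order of the pairs by fold ratio was thus Eya4 intron (2.96), Fbxo46 promoter near Six5 (1.99), Pax7 downstream (1.91), the Dmpk promoter near Six5 (1.79), the Rpa2 promoter near Eya3 (1.75), the Six4 promoter (1.65), the Six4 upstream peak (1.61) and the second Dmpk pair (1.53). Without replicates, neighbours in this order cannot be ranked.

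**Figure D4:**
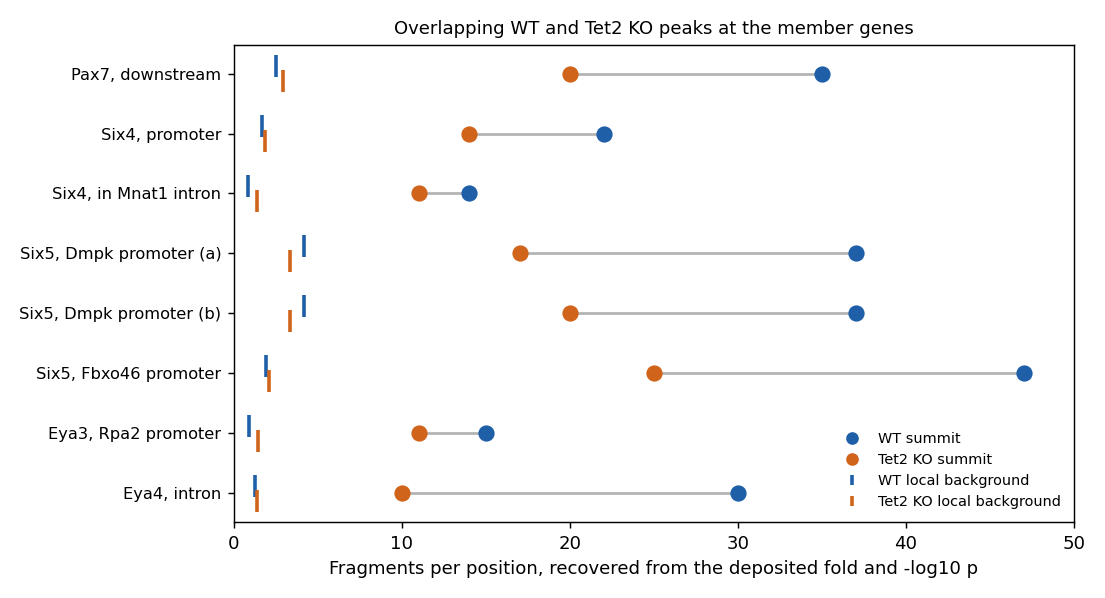
Fragments at the summit of each overlapping pair (x axis, fragments per position recovered from the deposited fold and -log10 p), for WT (blue) and Tet2 KO (orange), with local backgrounds as short bars. The 1 Dmpk promoter peak of WT appears with each of its 2 Tet2 KO peaks. Every blue point lies right of its orange one, by the widest margin relative to the Tet2 KO value at the Eya4 intron (30 against 10).

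Motifs in the 29 distal WT peaks of the 9 genes were found at shares near those of the 17866 distal peaks of the whole WT list. CAGCTG was in 13, or 44.8% (26.4 to 64.3%), against 42.6%, and TGANTCA in 12, or 41.4% (23.5 to 61.1%), against 47.1%. Both were in 5 (17.2%, against 16.8%) and neither in 9 (31.0%, against 27.1%). TGTGGTT was in 6 (20.7%, against 13.8%) and GGAATG in 4 (13.8%, against 22.4%). Of the 6 genes with a distal peak, all but Pax3 had at least 1 CAGCTG in such a peak, and the E boxes of the shared peaks at Pax7 and Six4 are those in capitals in the printed sequences.

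The MEF3 letters were in 2 of the 38 WT peaks (5.26%), the Pax7 intron and the Six4 promoter. The share over all WT peaks was 0.578%, just under the interval of 0.644 to 17.7%. By class this was not so. Among distal peaks it was 1 of 29, or 3.45% (0.0873 to 17.8%), against 0.655%. Among promoter peaks it was 1 of 9, or 11.1% (0.281 to 48.2%), against 0.312%. The whole-list share lies inside the interval in each class. The count of 2 is small, and the letters were 1 of 5 motifs searched. A match is a description of the letters and not of a bound factor. The 16 CAGCTG sites in the distal peaks lay at a median of 26.5 bases from the nearest CpG, against 23 over the 10345 such sites of the whole list. Of the 16, 6 lay within 10 bases, or 37.5% (15.2 to 64.6%), against 28.7%. The nearest was 1 base from a CpG, in the Pax7 peak 39.1 kb past the gene end, and the farthest 120 bases, in an Eya4 intron 3 peak.

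Related genes were counted by the same window. The 11 paralogues, genes of the same families used mainly in other organs, had 11 WT and 4 Tet2 KO peaks in all, and 6 of the 11 had a WT peak. Pax1, Pax6, Pax9, Six6 and Dach2 had none in either list, and the 4 peaks at Pax4 were the most at any paralogue. The share of WT peaks with a Tet2 KO peak was 4 of 11, or 36.4% (10.9 to 69.2%). Of the 2 paralogues with a WT promoter peak, Pax5 and Six2, only Six2 had a Tet2 KO promoter peak. The median paralogue had 1 WT peak and the median member of the 9 genes 5, counts that are not scaled to window length. Per 100 kb of window the paralogues ran from 0 to 3.74 WT peaks (Pax4) and the 9 genes from 0 to 4.82 (Six5).

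The 12 satellite cell identity genes, mostly surface receptors and adhesion molecules, had 44 WT and 8 Tet2 KO peaks, and 10 of the 12 had a WT peak. The share of WT peaks with a Tet2 KO peak was 18.2% (8.19 to 32.7%). Itga7, the integrin used in the sort, had 9 WT and 2 Tet2 KO peaks, the HGF receptor gene Met 8 and 0, and the adhesion gene Vcam1 6 and 0. Cd34, also used in the sort, had no listed peak. The intervals of both lists include the 14.1% of the whole WT list and overlap that of the 9 genes. The 6 myoblast genes share Myf5, Cdh15 and Itga7 with the satellite cell list. At these 6 genes, 14 of 39 WT peaks, or 35.9% (21.2 to 52.8%), had a Tet2 KO peak. This interval lies above 14.1% but overlaps that of the 9 genes. It counts the peaks of 5 genes as independent and is matched neither for promoter share nor for peak strength, so it is no test of a difference.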

How the data were processed

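ATAC-seq was performed on 2 WT and 2 Tet2 KO samples of primary myoblasts. Per the study's methods, the authors shortened the 150 bp paired-end reads, mapped them to mm9 by Bowtie2, applied a mapping quality filter, discarded duplicates by Picard and ran MACS2 on each sample. Tool versions are not given in the sources used here. The fold the authors deposited is a ratio of summit to local background within a library, to both of which a pseudocount of 1 is added. The deposited -log10 p and -log10 q are those of the peak caller at the summit, and the last deposited column is the summit's offset from the peak start. 55 Tet2 KO peaks have a -log10 q under 2. Total read numbers are not known.

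From the deposited fold and -log10 p, summit and background fragments were solved by the Poisson formula with a tolerance of 0.001 in -log10 p, which gave a solution for every peak (more than 1 for 55 WT and 1 Tet2 KO peaks, where the one not below the genome-wide background was used). These fragment numbers are the only depth known and set the precision. The calculation was tested on values simulated by the same formula. Such a test checks the solving and not whether the deposited values follow the formula. Peaks overlapped when sharing at least 1 bp. Annotation was GENCODE M1 on NCBIM37 (mm9), with features assigned at the peak centre. Named were the 9 genes, and of their peaks those at promoters, those overlapping between lists and the WT peak with the highest -log10 q of each gene, with others given by their range or position. Members, gene lists and motifs were chosen with earlier results of these data known. Alternatives were other windows, promoter widths, overlap rules and limits on -log10 q and fold. Calculations used pysam 0.24.0, scipy 1.17.1, pandas 2.3.3, numpy 2.4.6 and Python 3.11.15, and plots matplotlib 3.10.9. The study's mRNA-seq and methylation-seq data are not used here, and 1 further list of related genes is not reported here.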

Additional observations from a re-analysis of the deposited data

How the results depend on the processing

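Of 44 alternatives run on the counts and shares, 34 left a count within 1.5 times its value or a share inside its 95% interval, and 10 did not. Windows of 10 kb left 17 WT and 3 Tet2 KO peaks in place of 38 and 8. With -log10 q limited to 5 or more, the lists kept 3 Tet2 KO peaks and 0 genes with a Tet2 KO promoter peak, and the shared portion fell to 7.89% (whole WT list 9.03%). At 10 it left 23 WT and 1 Tet2 KO peak, again 0 such genes, and a shared portion of 4.35% in place of 18.4%, beside 3.41% over the whole WT list. A fold of at least 5 left 4 Tet2 KO peaks and a shared portion of 10.53% (whole list 10.6%). Leaving out peaks at promoters of other genes, which was chosen after seeing the data, also left 4. Fewer peaks are expected by construction under each of these limits. Genes with a WT promoter peak numbered 3 or 4, the CAGCTG share ran from 34.5 to 60.0% and the TGANTCA share from 40.0 to 46.7%. No paired analysis was possible because the 2 lists carry no replicate number, and no replicate could be left out for the same reason. Depth limits the weakest peaks, which rest on 9 WT or 10 Tet2 KO fragments.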
